A study of Mus musculus with 6 samples.

Results

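Fragments of tRNA-His, the transfer RNA that carries histidine to the ribosome, were described in 6 small RNA libraries of mouse serum. Its members are the distinct sequences that the deposited lists annotate as tRNA and name after a tRNA gene of histidine (His) type, and the rule used no measured value. Over the 6 libraries, 4192 of 57244 tRNA entries met it, with 4925599 of 73091881 tRNA reads, and a sequence found in several libraries counts once in each. The libraries came from serum of healthy male and female mice of the 129/SVj strain, 2 to 9 months old. The 3 groups differ in the library preparation kit, NEBNext Multiplex Small RNA, TruSeq small RNA v2 or TailorMix miRNA v2, with 2 libraries per kit numbered 1 and 2 by the serum. The same size window of the amplified library, 125 to 153 bp, was collected for each kit. The sources do not state whether sera 1 and 2 were the same in each kit, so the kit and the animal cannot be told apart.

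Angiogenin, a secreted ribonuclease, can split a mature tRNA near its anticodon into a 5′ and a 3′ fragment, and such 5′ fragments circulate in serum. tRNA-His stands apart from other tRNAs in one step of its maturation. An extra guanosine, which the gene does not encode, is added to its 5′ end by the enzyme Thg1 and is recognised by histidyl-tRNA synthetase when histidine is attached. The standard His codons are read by the anticodon GTG (written as in the gene). Library kits join adaptors to both RNA ends by ligation, and a fragment is sequenced only if both of its ends can be ligated. The deposited lists hold no read sequences, so where in the tRNA a fragment lay, its length and the added guanosine were not analysed here.

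The RefSeq annotation of GRCm38.p6, the genome build of the lists, has 10 nuclear tRNA genes with the anticodon GTG, each of 72 bp, and 1 with the anticodon ATG (n-THatg1, chr1:171669439-171669511). On chromosome 2, 3 of the GTG genes (n-THgtg4, n-THgtg3 and n-THgtg5) lie between 122375494 and 122378039, within 2546 bp. On chromosome 3, 6 of them (n-THgtg6, n-THgtg2, n-THgtg7, n-THgtg9, n-THgtg1 and n-THgtg8) lie between 96410069 and 96500437, and n-THgtg10 lies alone at chr4:82619623-82619694. The lists likewise name 10 GTG genes and 1 ATG gene, by numbers that could not be matched to these positions.

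Annotated reads (miRNA and other small RNA together) numbered 5144833 to 26256012 per library and tRNA reads 4911281 to 25976737. The counts per tRNA type of both libraries of a kit differed by more than counting noise (chi-square per degree of freedom of 106 to 5217), so that neither is a second copy of the other's counts, and the labels list them as separate samples. Sera came from individual mice, but no label ties a library to an animal, so p-values measure only the spread between these libraries, which may be technical. The 95% Wilson interval of the His share of a library was no wider than ± 0.0250 percentage points. Intervals cover the counting error of reads only. No molecular identifiers were used and PCR copies cannot be told from separate molecules, so the counting error of molecules may be larger. Of the red cell miRNAs, miR-16-5p, the one whose identifier the sources name, took 0.374% to 0.402% of miRNA reads in NEBNext, 2.81% to 3.22% in TruSeq and 4.89% to 5.14% in TailorMix. The part of red cell lysis in the results was not tested.

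The first question was how much of the tRNA pool each kit reported as His. His reads numbered 598553 and 470884 in NEBNext libraries 1 and 2, 2076139 and 1650190 in TruSeq, and 61501 and 68332 in TailorMix. As a share of tRNA reads this was 2.30% and 2.81% in NEBNext, 18.5% and 18.1% in TruSeq, and 1.25% and 1.35% in TailorMix. Both TruSeq libraries lay above both NEBNext libraries, and these above both TailorMix libraries, with no overlap. The TruSeq mean was 7.15 times that of NEBNext and 14.05 times that of TailorMix, and the TailorMix mean was 0.509 times that of NEBNext. The spread between kits relative to that within kits was the largest of the 15 possible groupings into pairs (two-sided exact permutation test, p = 0.0667, which is the smallest p this design allows). Among the 21 tRNA types, His ranked 3 in both TruSeq libraries, 4 in both NEBNext libraries and 5 in both TailorMix libraries. As a share of annotated reads, His took 2.53% ± 0.349 in NEBNext, 17.7% ± 0.242 in TruSeq and 1.24% ± 0.0663 in TailorMix (SD, n = 2 each, exact permutation p = 0.0667). In bulk serum, a larger number of releasing cells and more fragments per cell cannot be told apart, and a share of reads is not a concentration.

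The difference between NEBNext and TailorMix was not spread evenly over the His sequences. The most abundant His sequence of a library took 0.776% and 0.791% of tRNA reads in NEBNext and 0.715% and 0.780% in TailorMix, so that the libraries of these kits overlapped. With TruSeq it took 9.91% and 9.41%, and over the 3 kits the exact permutation p was 0.133. All other His sequences together took 1.53% and 2.02% of tRNA reads in NEBNext, 8.54% and 8.69% in TruSeq, and 0.537% and 0.569% in TailorMix, and here no kits overlapped (exact permutation p = 0.0667). TailorMix thus had 0.954 times the NEBNext share for the leading sequence and 0.312 times for the remainder. Whether the leading sequence is the same RNA in each library is not known from the lists.

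**Figure D1:**
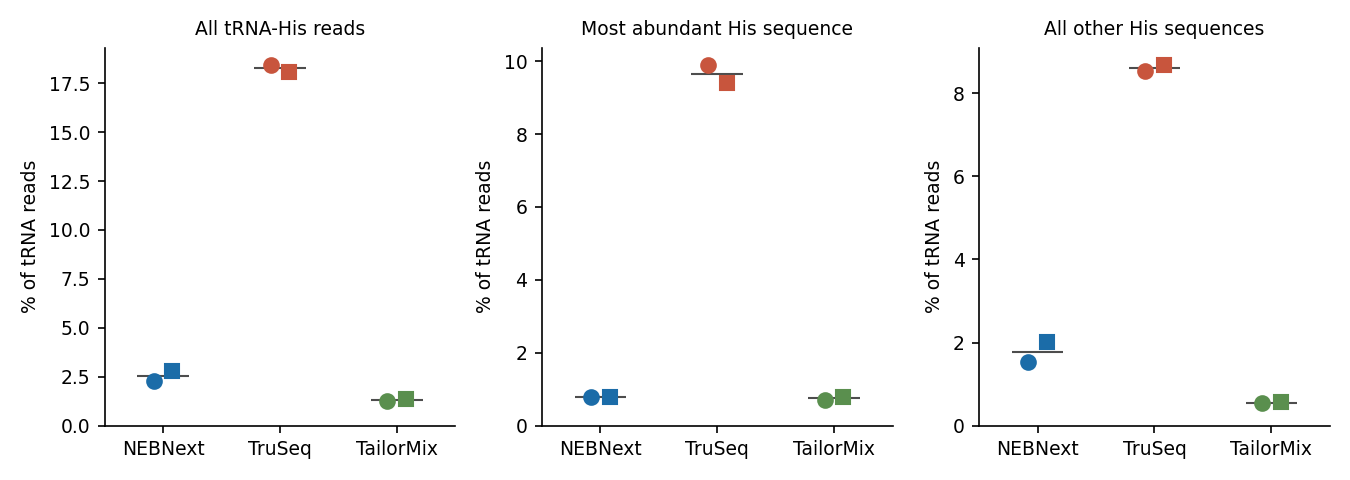
Share of tRNA reads (%) taken by all tRNA-His reads (left), by the most abundant His sequence of the library (middle) and by all other His sequences (right). Circles are replicate 1, squares replicate 2 and bars the mean of 2 libraries; each panel has its own axis from 0. TruSeq stands above the other kits in each panel, and NEBNext and TailorMix overlap only in the middle one.

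His was then set against the 20 other tRNA types in a common fit, edgeR's quasi-likelihood test on counts per type with total tRNA reads as library size and Benjamini-Hochberg adjustment over 21 types. From NEBNext to TruSeq, His rose by a log2 fold change of 2.84 (SE 0.13, adjusted p = 1.84e-30), the highest value of the 21 types, next to Val with 2.79. The size of p depended on the features fitted together. With counts by anticodon, the log2 fold change and SE of His were again 2.84 and 0.13, but the edgeR adjusted p was 0.000135. The highest place held among types and not among anticodons. Leu-CAG, for example, had 1303 and 1084 reads in NEBNext and 14387 and 9567 in TruSeq, a larger rise than that of His. In this contrast 85.7% of the 21 types passed an adjusted p of 0.05 (33.3% higher and 52.4% lower in TruSeq), and of the other 20 types 6 rose, 11 fell and 3 did not pass, with a median of -0.98 and a range from -4.63 to 2.79. From TruSeq to TailorMix, His had a log2 fold change of -3.81 (SE 0.13, edgeR adjusted p = 1.00e-36), the lowest of the 21 types. Lys was close, with -3.78 (SE 0.15). With counts by anticodon, His was again at -3.81 (SE 0.14), with an edgeR adjusted p of 5.94e-05. It was not the lowest of the anticodons. Arg-CCG, for example, had 4155 and 2767 reads in TruSeq and 106 and 68 in TailorMix, a larger fall than that of His. In this contrast 90.5% of the 21 types passed (57.1% higher and 33.3% lower in TailorMix). Of the other 20, 12 rose, 6 fell and 2 did not pass, with a median of 0.95 and a range from -3.78 to 4.87. These contrasts share the TruSeq libraries.

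From NEBNext to TailorMix, His had a log2 fold change of -0.97 (SE 0.12, edgeR adjusted p = 6.52e-11) on total tRNA reads, but of 0.53 under TMM normalization, which reverses the direction. With counts by anticodon on total tRNA reads it was again -0.97 (SE 0.12), with an edgeR adjusted p of 0.00260. In this contrast 66.7% of types passed (28.6% higher and 38.1% lower in TailorMix), and of the other 20 types 6 rose, 7 fell and 7 did not pass, Val, Glu and Gly among the last. Over any kit, 95.2% of types passed, so that a call of His is the rule and not an exception among tRNA types. The scaling set much of the size. TMM moved the median log2 fold change of all 21 types from -0.86 to 0.55 from NEBNext to TruSeq. From NEBNext to TailorMix it moved this median from -0.11 to 1.40, farther from 0, so that His at 0.53 lay below the median in both fits. Under TMM, 11 types rose and 7 fell from NEBNext to TruSeq, against 7 and 11 on total reads, and 16 rose and 4 fell from NEBNext to TailorMix, against 6 and 8. DESeq2's size factors gave 10 and 10 from NEBNext to TruSeq, and 9 higher and 8 lower from TruSeq to TailorMix, against 12 and 7. His from NEBNext to TruSeq was 4.25 under TMM and 3.54 with DESeq2, and from TruSeq to TailorMix -3.72 and -4.41.

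**Figure D2:**
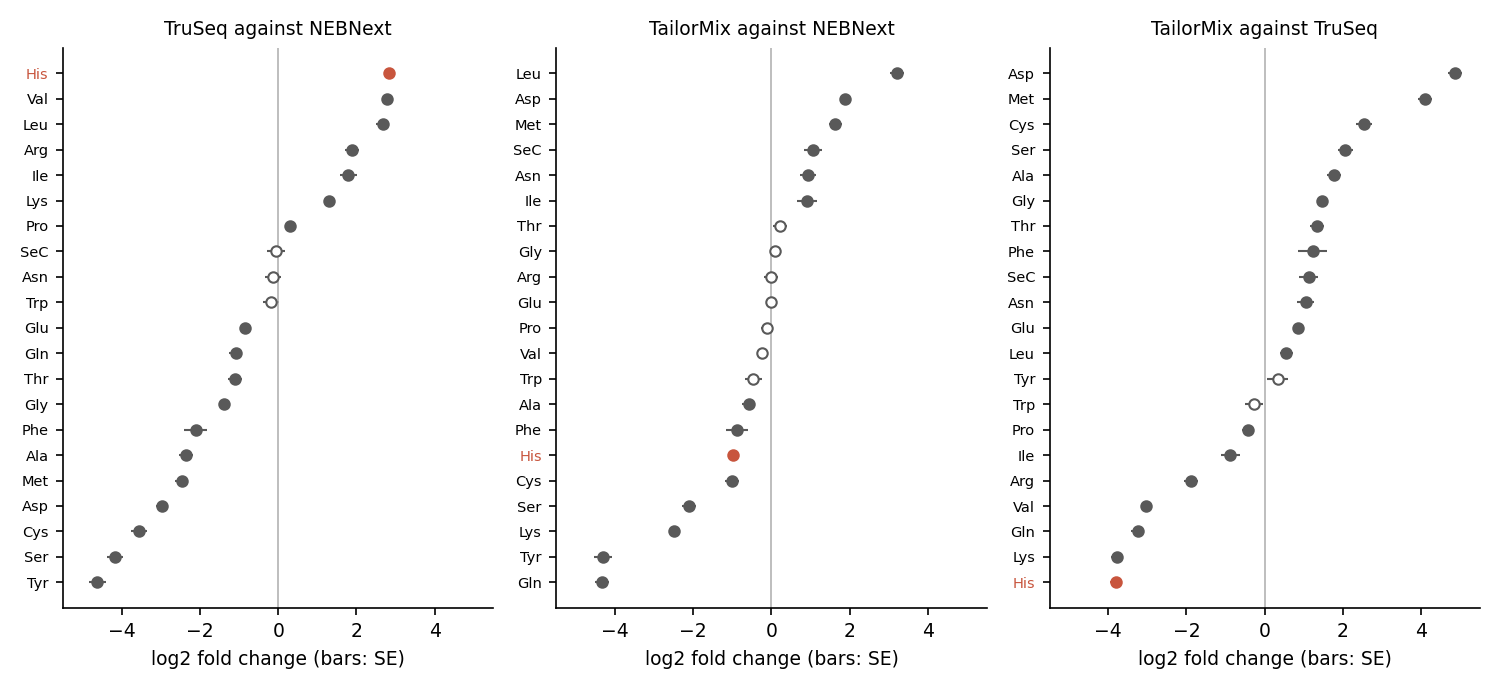
log2 fold change (x axis) of each of 21 tRNA types between kits on total tRNA reads, ordered within each panel, with SE as bars; His is in red, and open points did not pass an adjusted p of 0.05. His is the highest type from NEBNext to TruSeq, with Val close at 2.79, and the lowest from TruSeq to TailorMix, with Lys close at -3.78. The His value of -0.97 from NEBNext to TailorMix turns to 0.53 under TMM normalization.

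Since shares of the same total depend on each other, His was also compared with single types within a library by the ratio of reads. His over Val was 0.489 and 0.524 in NEBNext, 0.568 and 0.485 in TruSeq, and 0.293 and 0.317 in TailorMix. The NEBNext values lay between the TruSeq values, and both TailorMix values lay below all others (two-sided exact permutation test on log2 ratios, p = 0.200, adjusted over 4 ratios p = 0.200). The log2 difference of TruSeq from NEBNext was 0.05 and became -0.063 without TruSeq replicate 1, so that no direction can be given. The TruSeq mean ratio was 1.73 times that of TailorMix.

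Against the other types the ratio moved far more. His over Glu was 0.0453 and 0.0554 in NEBNext, 0.597 and 0.723 in TruSeq, and 0.0246 and 0.0271 in TailorMix. His over Gly was 0.0588 and 0.0742 in NEBNext, 1.30 and 1.19 in TruSeq, and 0.0310 and 0.0324 in TailorMix, so that His outnumbered Gly in both TruSeq libraries. His over Asp was 5.46 and 5.51 in NEBNext, 287 and 333 in TruSeq, and 0.705 and 0.800 in TailorMix. TailorMix was the kit with fewer His than Asp reads. For each of these 3 ratios no kits overlapped, in TruSeq highest and TailorMix lowest (exact permutation p = 0.0667, adjusted over 4 ratios p = 0.0889).

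**Figure D3:**
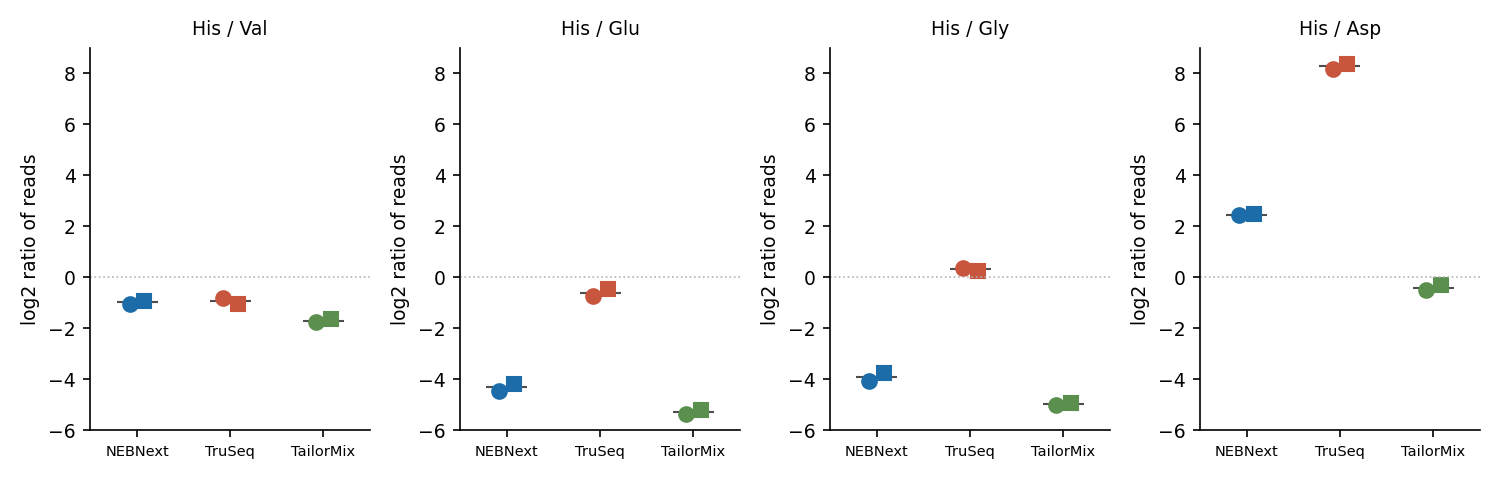
log2 ratio of His reads to Val, Glu, Gly and Asp reads (y axis, common scale) in each library; circles are replicate 1, squares replicate 2, bars the mean of 2 libraries and the dotted line equal numbers of reads. His over Val stays between -1.77 and -0.82, whereas His over Asp extends from -0.50 to 8.38.

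The tRNA types whose log2 share of tRNA reads followed His most closely over the 6 libraries were Val (Pearson r = 0.983), Pro (r = 0.982) and Arg (r = 0.965). These values describe 6 points that fall into 3 kits and that are parts of the same total, and no p was computed. The types were alike in order but not in size. Val took 5.04% ± 0.459 of tRNA reads in NEBNext, 34.9% ± 3.44 in TruSeq and 4.27% ± 0.0167 in TailorMix (SD, n = 2 each). Pro took 0.400% ± 0.0226, 0.497% ± 0.00885 and 0.372% ± 0.0167 in the same order (SD, n = 2 each). Arg took 0.0120% ± 0.00202, 0.0444% ± 0.00446 and 0.0120% ± 0.0000612 (SD, n = 2 each), so that NEBNext and TailorMix overlapped for it.

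Next, the number of distinct His sequences was compared. NEBNext libraries held 737 and 683, TruSeq libraries 980 and 958, and TailorMix libraries 416 and 418 (exact permutation p = 0.0667), in the order of their His reads. His made up 5.97% and 6.08% of all distinct tRNA sequences in NEBNext, 10.3% and 10.7% in TruSeq, and 5.52% and 5.42% in TailorMix. Because more reads reveal more sequences, the number expected in 61501 His reads, the smallest number in a library, was computed from the counts. It was 340 and 345 in NEBNext, 283 and 293 in TruSeq, and 416 and 402 in TailorMix, which is the reverse order, again with no overlap (exact permutation p = 0.0667). At equal depth, TruSeq thus had the fewest distinct His sequences and TailorMix the most. Sequences with a single read made up 33.1% to 38.2% of the distinct His sequences of a library. They carried 0.0164% to 0.259% of its His reads, and sequencing errors among them cannot be told from fragments.

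At the other end, few sequences carried most His reads. The leading His sequence had 201500 and 132646 reads in NEBNext, 1114956 and 858109 in TruSeq, and 35106 and 39492 in TailorMix. As a share of His reads this was 33.7% (95% Wilson interval 33.5% to 33.8%) and 28.2% in NEBNext, 53.7% and 52.0% in TruSeq, and 57.1% and 57.8% in TailorMix. Both NEBNext libraries lay below all others, and the 3 kits did not overlap (exact permutation p = 0.0667). In NEBNext it took 3 sequences to reach 50% of His reads, and in each other library 1.

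The second His sequence held 15.4% and 18.8% of His reads in NEBNext, 10.97% and 12.3% in TruSeq, and 9.81% and 9.73% in TailorMix. The third held 9.28% and 7.71% in NEBNext, 10.7% and 10.8% in TruSeq, and 6.17% and 6.45% in TailorMix. The replicates of a kit had similar profiles over the first ranks, with a leading sequence that was less dominant in NEBNext. Together the 3 most abundant sequences carried 56.5% ± 2.60 of His reads in NEBNext, 75.2% ± 0.169 in TruSeq and 73.5% ± 0.643 in TailorMix (SD, n = 2 each, exact permutation p = 0.0667), so that TruSeq exceeded TailorMix here and fell below it for the leading sequence alone. To cover 90% of His reads took 20 and 22 sequences in NEBNext, 7 and 8 in TruSeq, and 17 and 15 in TailorMix.

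**Figure D4:**
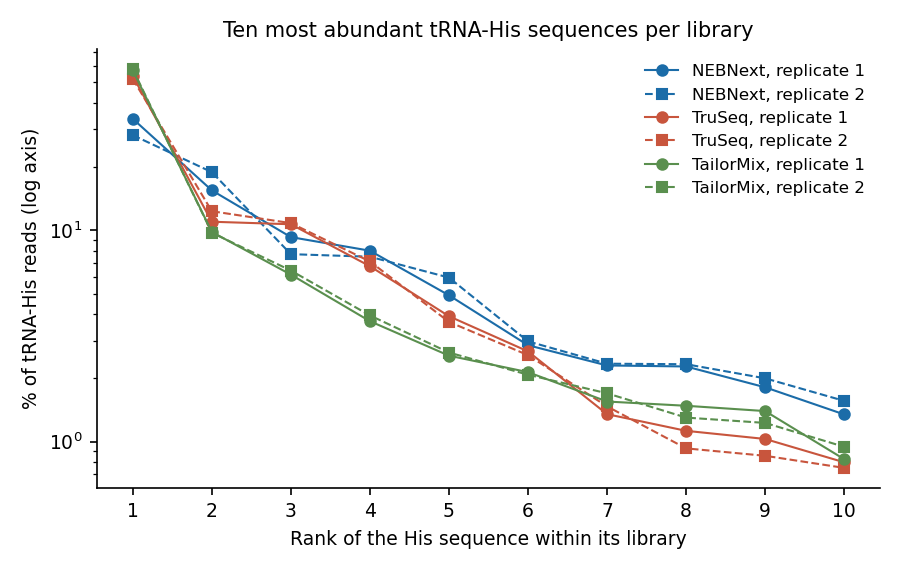
Share of His reads (%, log axis) of the 10 most abundant His sequences of each library, by rank within the library (x axis). The NEBNext curves start at 33.7% and 28.2% and lie above the others from rank 4 on, while the TruSeq and TailorMix curves start between 52.0% and 57.8%.

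Among the listed sequences, read counts never rose with the sequence number in any of the 6 libraries. The numbers were taken to rank all sequences of a library, also those outside the lists, which could not be checked. By this number, the leading His sequence was number 26 and 27 in NEBNext, 10 in both TruSeq libraries, and 44 and 42 in TailorMix. The second His sequence was number 48 and 37 in NEBNext, 27 and 24 in TruSeq, but only 238 and 219 in TailorMix.

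For comparison, the leading sequence of Val took 25.1% ± 0.808 of Val reads in NEBNext, 39.4% ± 2.65 in TruSeq and 51.3% ± 0.00237 in TailorMix (SD, n = 2 each), the same order as for His. For Glu it took 32.5% ± 0.367, 58.4% ± 0.717 and 40.3% ± 0.0526, and for Gly 66.3% ± 0.419, 79.6% ± 2.21 and 40.0% ± 0.267, in TruSeq highest (SD, n = 2 each). For each of these types the exact permutation p was 0.0667. A difference in concentration between His and these types was not tested.

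Each sequence is listed under a single gene, and identical sequences of gene copies cannot be told apart. All 10 GTG genes were named in every library. The ATG gene, tRNA717, was named for 1 read in NEBNext library 2, under the floor of 3 counts. The gene with the most His reads was tRNA587 (52.2%) and tRNA1432 (51.5%) in the NEBNext libraries, tRNA751 (61.8%) and tRNA1432 (63.6%) in the TruSeq libraries, and tRNA1432 (65.9%) and tRNA1431 (65.5%) in the TailorMix libraries. The leading gene thus differed between the replicates of every kit. It was in each case the gene named for the leading sequence, and 4 genes served as such.

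The swings were wide for single genes. tRNA751 held 61.8% of His reads in TruSeq replicate 1 and 3.17% in replicate 2, and tRNA1432 held 0.298% and 63.6% in the same libraries. Over the 6 libraries the highest share of a gene was more than 10 times its lowest for 8 of the 10 genes. Reads per named gene therefore give no comparison between kits.

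tRNA749 was steadier in part of the libraries. It held 13.4% and 13.2% of His reads in TruSeq and 10.9% and 10.1% in TailorMix, but 4.25% and 0.807% in NEBNext. It was named for the second His sequence in TruSeq replicate 1 and for the third in TruSeq replicate 2 and both TailorMix libraries. These sequences had 227796 and 178335 reads in TruSeq and 3793 and 4405 in TailorMix. Whether they are the same RNA is not known from the lists.

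Counted by distinct sequences instead of reads, the GTG genes other than tRNA293 kept more even shares. tRNA749 was named for 23.6% and 22.5% of the distinct His sequences in TruSeq, 23.6% and 22.01% in TailorMix, and 14.2% in both NEBNext libraries. tRNA747, tRNA751, tRNA1431, tRNA1432 and tRNA1691 each were named for between 9.09% and 15.4% of the sequences in every library. tRNA291, tRNA295 and tRNA587 each were named for between 3.22% and 6.11%.

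tRNA293, like tRNA717, was chosen for mention after its values were seen. tRNA293 had 503 and 504 reads in NEBNext, 566 and 475 in TruSeq, and 10 and 16 in TailorMix, at most 0.107% of His reads. These fell on 52 and 53 sequences in NEBNext, 39 and 36 in TruSeq, and 4 in both TailorMix libraries, so that no leading His sequence bore its name. Of the distinct His sequences, tRNA293 took 7.06% and 7.76% in NEBNext, 3.98% and 3.76% in TruSeq, and 0.962% and 0.957% in TailorMix. No test was made on named genes.

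**Figure D5:**
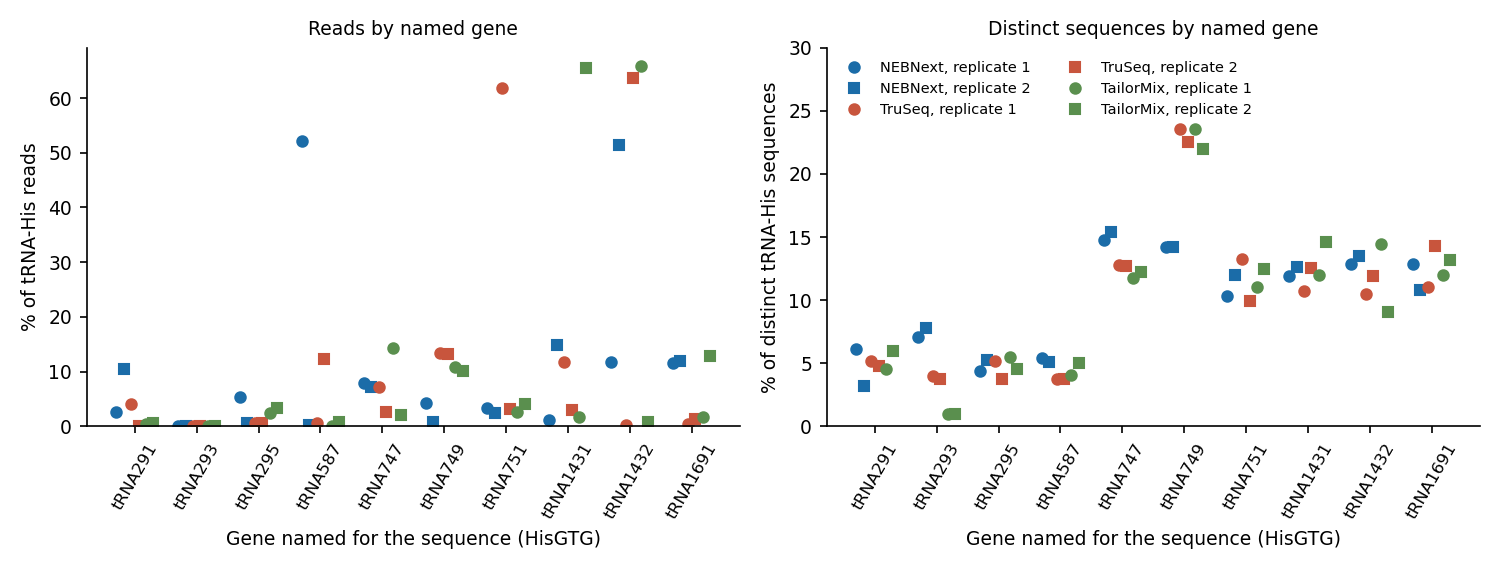
Share of His reads (left, %) and of distinct His sequences (right, %) listed under each of the 10 GTG genes, 1 point per library (circles replicate 1, squares replicate 2). On the left the leading gene changes between replicates of a kit; on the right tRNA749 stands at 22.01% to 23.6% in TruSeq and TailorMix and at 14.2% in NEBNext.

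Finally, His reads were set against the miRNA reads of the same library, since the study was concerned with the reads that tRNA fragments take from miRNAs. There were 2.66 and 2.85 His reads per miRNA read in NEBNext, 5.90 and 5.85 in TruSeq, and 0.318 and 0.347 in TailorMix. His alone thus outnumbered all miRNA reads in the NEBNext and TruSeq libraries and not in the TailorMix libraries. No kits overlapped (exact permutation p = 0.0667), and the TruSeq mean was 2.13 times that of NEBNext and 17.7 times that of TailorMix.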

How the data were processed

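Per the paper's methods and the submitters' processing notes, the authors trimmed adaptors with cutadapt 1.8.1, removed short and low-quality reads, mapped the remainder without mismatches with Bowtie 1.1.2, and annotated reads by position (miRBase, UCSC GRCm38 and Ensembl). The deposited values are raw read counts, per miRNA and per distinct sequence of other small RNAs, 1 library per list and not normalized. The lists leave out mapped reads of no annotated class.

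His reads were the entries of class tRNA whose gene name holds His, summed with scipy 1.17.1, numpy 2.4.6 and pandas 2.3.3 under Python 3.11.15. Means have the SD of 2 libraries. Single values were compared between kits by an exact permutation test of the F ratio over 15 groupings. Counts per tRNA type were tested with edgeR 4.0.16 (R 4.3.3, glmQLFit and glmQLFTest) on all 6 libraries without a block. Total tRNA reads were the library size, and no filter was used. The SE given with an edgeR log2 fold change is its absolute value divided by the square root of the F statistic. It is thus derived from the test and is not a separate measure of spread. DESeq2 1.42.0, TMM, other library sizes, a minimum of 4 reads per sequence, anticodons in place of types, the replicate block, fits of 4 libraries and single libraries left out were alternatives. The expected number of sequences at equal depth was computed without drawing. Types named besides His were Glu, Gly, Val, Asp and the 3 with the highest correlation with His; genes named had at least 1% of the His reads of a library. The members and lists were chosen with earlier results of these data known. miRNAs are listed by identifier only, so other markers of red cells and liver were not matched.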

Additional observations from a re-analysis of the deposited data

How the results depend on the processing

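Of 347 values under the alternatives, 325 kept their direction and side of the threshold, or stayed within 1.5 times for counts. The exact permutation test allows no p under 0.0667. Values judged by it could therefore change only in direction and could not cross the threshold of 0.05. With TMM normalization, 11 types were higher and 7 lower in TruSeq than in NEBNext, 16 were higher and 4 lower in TailorMix than in NEBNext, and His in the latter contrast reversed to a log2 fold change of 0.53, while the median of all types in it moved from -0.11 to 1.40; the cause was not tested. Testing only types with at least 1% of tRNA reads left 6 types, all called over any kit, with 3 higher and 3 lower from NEBNext to TruSeq, 1 higher and 2 lower from NEBNext to TailorMix, and 3 and 3 from TruSeq to TailorMix. Counted by anticodon, with 49 features tested, 35 were called over any kit and 20 were lower in TruSeq than in NEBNext. In TailorMix 11 were higher and 17 lower than in NEBNext, and 12 were lower than in TruSeq. Both alternatives changed the features tested, and the cause of the changed counts was not tested. The adjusted p of His over any kit lay between 1.37e-233 (DESeq2) and 0.000112 (counts by anticodon) over its alternatives. At a common number of His reads, the log2 ratio of distinct sequences reversed to -0.25 for TruSeq over NEBNext, 0.26 for TailorMix over NEBNext and 0.51 for TailorMix over TruSeq. With the 3 most abundant sequences in place of 1, TailorMix over TruSeq reversed to -0.033; the cause was not tested. Leaving out single libraries moved the log2 ratio of His to Val from NEBNext to TruSeq between -0.063 and 0.17, and His from NEBNext to TailorMix between -1.11 and -0.82. With tRNA reads other than Val as library size, an alternative chosen after seeing the data, His had log2 fold changes of 3.38, -0.99 and -4.37 in the contrasts TruSeq against NEBNext, TailorMix against NEBNext and TailorMix against TruSeq. Where 1 library of a kit was left, it is assumed to vary like the others.

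With the replicate block, 20 types were again called over any kit, and His had log2 fold changes of 2.84, -0.97 and -3.82 in the contrasts TruSeq against NEBNext, TailorMix against NEBNext and TailorMix against TruSeq, so that the replicate block changed no call of His. The difference between libraries 1 and 2 over 21 types had correlations of 0.200, 0.0508 and 0.118 between kits, and the libraries were taken to share only a number.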
